A study of Mus musculus with 2 samples.

Results

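The genes described here encode neuropeptides and the machinery of the dense-core granule, the secretory vesicle in which neurons and endocrine cells store peptides. They are 35 genes chosen by symbol, of 43346 mouse genes in each deposited table: 24 peptide precursors, 5 granins, 2 regulators of the prohormone convertases and 4 processing enzymes. All 35 symbols matched 1 gene each, and no gene was chosen for its measured level. Total RNA was sequenced from the neural tube of strain B6NCrl mouse embryos aged 13.5 days. Males and females were pooled, and the number of embryos is not given in the sources used here. The labels give 2 biological replicates of 1 group with no treatment, each made from 10 ng of RNA with added spike-in RNA. The 2 libraries held 34125110 and 22311849 estimated reads, of which 67432 and 39207 fell on the 35 genes. That was 0.21% and 0.186% of the reads on mouse genes.

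A neuropeptide is made as a longer precursor that enters the regulated secretory pathway and is packed into granules with the granins, acidic proteins that help the granule core to form. Inside the granule, the convertases Pcsk1 and Pcsk2 cut the precursor after pairs of basic residues, the carboxypeptidase Cpe trims the basic residues that remain, and Pam turns a C-terminal glycine into an amide. The peptide is then released and acts on receptors, most of them coupled to G proteins. In the developing spinal cord and its sensory ganglia, peptides mark particular classes of neurons, such as somatostatin and enkephalin in dorsal horn interneurons and substance P and calcitonin gene-related peptide in sensory neurons.

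With a single group, levels were described and the libraries were set against each other, and no comparison of conditions was possible. Levels are length-scaled transcript shares (TPM), which account for transcript length and can be compared between genes. In bulk tissue, fewer cells of a type and less RNA per cell cannot be told apart. Of the markers that define the labelled tissue, 6 of 6 for neural progenitors and 7 of 7 for neurons in general were detected. All 13 markers of sensory ganglia were also detected, with summed levels of 635.9 and 524 TPM in replicates 1 and 2. The 8 pituitary markers summed to 0.42 and 1.03 TPM, none was detected, and Gh, Lhb and Pou1f1 were among those at 0 in both libraries. Of the 6 hypothalamic markers only Otp was detected. Of 6 markers listed for gut and lung endocrine cells 5 were detected, with summed levels of 41.25 and 50.5 TPM.

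A gene was taken as detected where both libraries had at least 1 TPM, and 29 of the 35 genes passed, where 61.8% of the 21474 protein-coding genes did. All 11 granins, regulators and processing enzymes passed, and 18 of 24 peptide precursors did. The median level was 15.9 TPM over the 35 genes, against 4.96 TPM over protein-coding genes. It was 6.38 TPM over the precursors and 42.5 TPM over the other 11. Levels of at least 10 TPM in both libraries were found for 9 precursors, 4 granins, both regulators and 3 of the 4 enzymes, and 5 genes reached 100 TPM in both. These 5 were Cpe, Npy, Sst, Pcsk1n and Scg5.

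**Figure D1:**
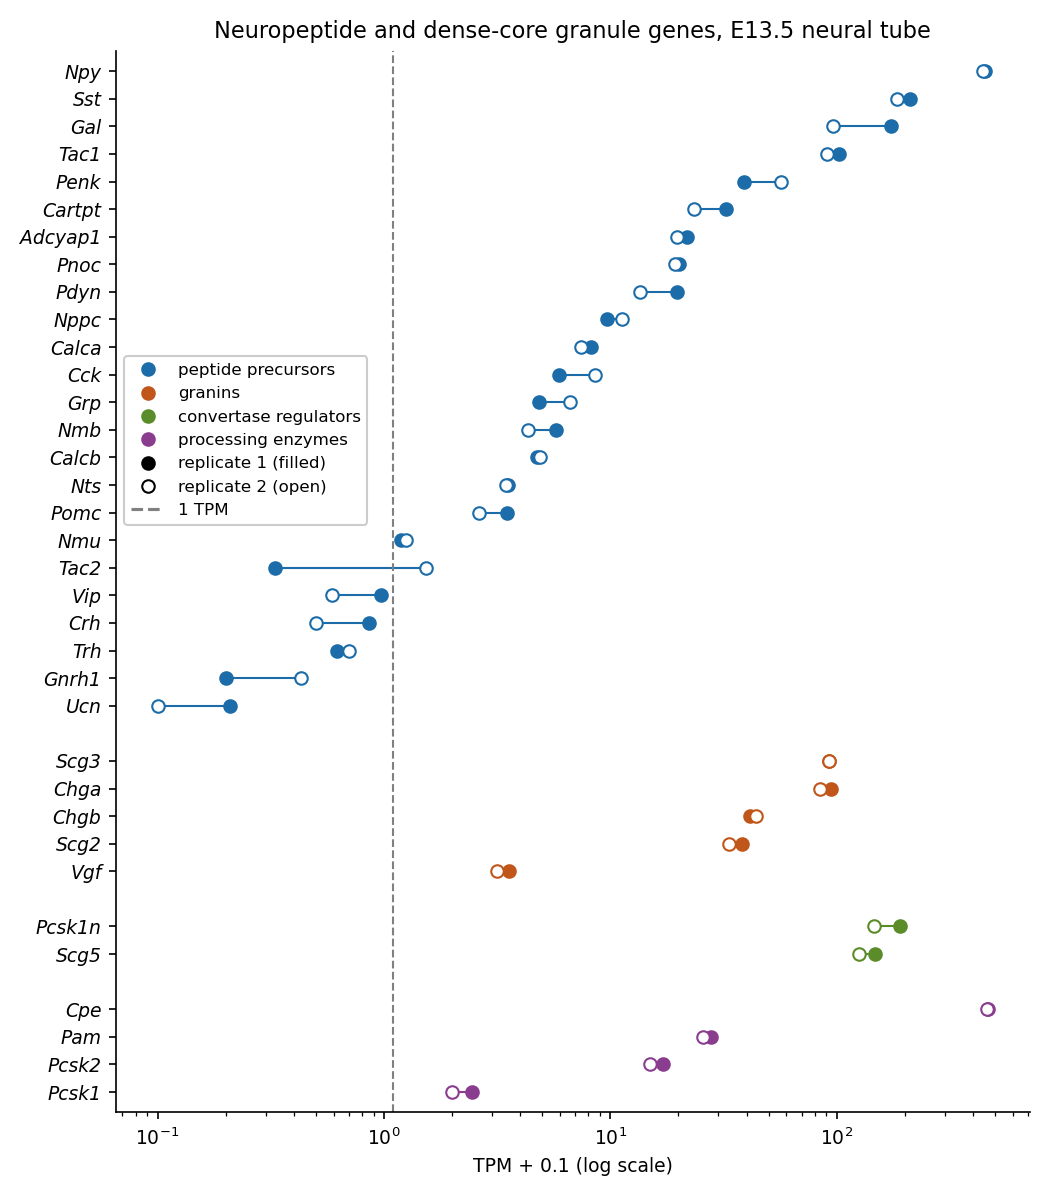
TPM + 0.1 on a log scale for each of the 35 genes (rows, grouped by role), with replicate 1 as filled and replicate 2 as open circles joined by a line, and 1 TPM as a dashed line. Npy and Cpe lie farthest right, at 446 and 465 TPM on average, and the 6 genes that fall short of 1 TPM in at least 1 library are all peptide precursors.

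Of the peptide precursors, neuropeptide Y, a peptide of sympathetic and central neurons, had the highest level. Npy stood at 449.8 TPM in replicate 1 and 441 TPM in replicate 2, or 446 ± 5.96 (SD, n = 2), which put it at rank 229 of the protein-coding genes. Sst, the precursor of the inhibitory peptide somatostatin, followed at 210.1 and 185 TPM. In both libraries Npy lay above Sst, by 2.26 ± 0.171 times (SD, n = 2). Gal, the precursor of galanin, a peptide of sensory and central neurons, was at 173 and 96.2 TPM. Tac1, which encodes substance P and neurokinin A, was at 102 and 91.0 TPM. Gal exceeded Tac1 by 1.69 times in replicate 1 and 1.06 times in replicate 2, and their ranges over the libraries overlapped. These 4 genes held 83.7% and 81.5% of the summed precursor level.

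Precursors of the opioid family spread over a wide range of levels. Penk, the precursor of the enkephalins, was at 38.8 and 56.4 TPM, and was the only one of the 3 opioid-family genes Penk, Pdyn and Pnoc that was higher in replicate 2. Pdyn, which gives the dynorphins, was at 19.7 and 13.4 TPM. Pnoc, the precursor of nociceptin, was at 20.1 and 19.1 TPM and differed little between the libraries. Penk exceeded Pdyn by 1.97 times in replicate 1 and 4.20 times in replicate 2, so its lead over Pdyn depended on the library. Pomc, the precursor of melanocortins and beta-endorphin, reached 3.41 and 2.54 TPM.

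Cartpt, the precursor of the cocaine- and amphetamine-regulated transcript peptides, was at 32.4 and 23.2 TPM. Adcyap1 encodes PACAP, a peptide that raises cyclic AMP in its target cells, and was at 21.7 and 19.6 TPM. Nppc, the precursor of C-type natriuretic peptide, which guides the branching of sensory axons, was at 9.52 and 11.2 TPM. Calca and Calcb, which encode the alpha and beta forms of calcitonin gene-related peptide (CGRP), were at 8.09 and 7.30 TPM and at 4.66 and 4.77 TPM. The pair lies on chromosome 7 (GRCm38), with Calca at 114631478 to 114636357 on the minus strand and Calcb at 114718643 to 114723365 on the plus strand. Calca exceeded Calcb by 1.63 ± 0.145 times (SD, n = 2), and their library ranges did not overlap.

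Lower precursors that passed the detection level were Cck, Grp, Nmb, Nts and Nmu. Cck, the precursor of cholecystokinin, was at 5.81 and 8.45 TPM. Grp, the precursor of gastrin-releasing peptide, an itch transmitter of the spinal cord in the adult, was at 4.75 and 6.51 TPM. Both were read from fewer than 100 reads a library, and both lay higher in replicate 2. Nmb, the precursor of neuromedin B, was at 5.63 and 4.22 TPM. Of the 793 exonic bases of Nmb, 163 are shared on the same strand with Sec11a, a signal peptidase gene at 152 TPM, so reads may be divided between them. Nts, the precursor of neurotensin, was at 3.45 and 3.37 TPM. Nmu, the precursor of neuromedin U, was at 1.09 and 1.15 TPM, just inside the detection level, on 18 and 12 reads.

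The 6 precursors that missed it were Vip, Crh, Trh, Tac2, Gnrh1 and Ucn. Vip, the precursor of vasoactive intestinal peptide, was at 0.87 and 0.49 TPM on 28 and 10 reads. Crh, which encodes corticotropin-releasing hormone, was at 0.76 and 0.40 TPM, and Trh, which encodes thyrotropin-releasing hormone, at 0.52 and 0.60 TPM. Tac2, the precursor of neurokinin B, was at 0.23 and 1.44 TPM, on 3 and 12 reads, and so crossed the detection level in replicate 2 alone. Gnrh1, the precursor of gonadotropin-releasing hormone, had 1 and 2 reads. Ucn, the precursor of urocortin, had 1 read in replicate 1 and 0 in replicate 2, where a count of 0 allows a level of up to 0.517 TPM. At this depth Gnrh1 and Ucn were not detectable above that limit of 3 reads in either library.

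Among the processing enzymes, Cpe had the highest level of all 35 genes, at 467 and 463 TPM, or 465 ± 2.52 (SD, n = 2). It made up 90.8% and 91.6% of the summed level of the 4 enzymes. Pam, the only amidating enzyme of mammals, was at 27.7 and 25.6 TPM. Pcsk2, the convertase that does most of the late cutting in neurons, was at 17.0 and 14.8 TPM, and Pcsk1, which cuts earlier, was at 2.34 and 1.89 TPM. Pcsk2 thus exceeded Pcsk1 by 7.55 ± 0.414 times (SD, n = 2), and Cpe exceeded Pam by 17.5 ± 0.882 times. The order Cpe, Pam, Pcsk2, Pcsk1 was the same in both libraries and no pair of neighbours among these 4 overlapped.

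The regulators of the convertases stood far above the enzymes they bind. Scg5 encodes 7B2, the chaperone that Pcsk2 needs to mature, and was at 148 and 125 TPM. Pcsk1n encodes proSAAS, an inhibitor of Pcsk1, and was at 189.7 and 146 TPM. Scg5 exceeded Pcsk2 by 8.58 ± 0.194 times and Pcsk1n exceeded Pcsk1 by 79.2 ± 2.68 times (SD, n = 2). Both genes were lower in replicate 2.

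Of the 5 granins, Scg3, which binds cholesterol-rich granule membrane and retains other granins there, was at 92.0 TPM in both libraries. Chga, chromogranin A, was at 94.5 and 84.2 TPM, and its range overlapped that of Scg3. Chgb, chromogranin B, was at 41.2 and 43.8 TPM, and Scg2, secretogranin II, at 38.0 and 33.3 TPM. Vgf, a granin-like gene induced by neurotrophins, was far below them at 3.48 and 3.07 TPM, and Scg3 exceeded it by 28.2 ± 2.49 times (SD, n = 2).

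Summed by role, the precursors came to 1117 and 998 TPM, the granins to 269 and 256 TPM, the regulators to 338 and 271 TPM and the enzymes to 514 and 506 TPM. The granins, regulators and enzymes together came to 1121 and 1033 TPM. Their sum over that of the precursors was 1.00 in replicate 1 and 1.03 in replicate 2, or 1.02 ± 0.022 (SD, n = 2). Both ratios lay slightly above 1, at 1.004 and 1.035, and their SD rests on 1 difference, so parity was not tested. Without Npy and Cpe, the highest gene on each side, the ratio was 1.00 ± 0.03. The ratio of the medians was 6.78 ± 0.612, and 19 of the 24 precursors lay below the median of the other 11 genes. With 2 libraries an exact sign-flip test cannot go below p = 0.5, so the ratios are given without a test.

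**Figure D2:**
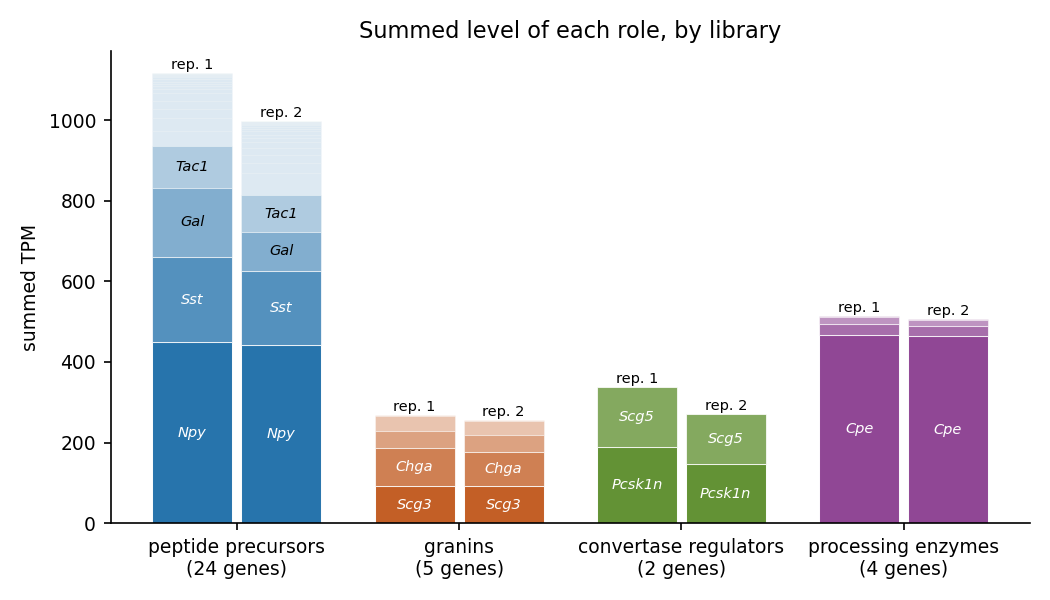
Summed TPM of each role (bars from 0), as a stack of its genes, with replicate 1 left and replicate 2 right in each pair and the genes above 60 TPM named. Npy fills 40.3% and 44.2% of the precursor bars and Cpe 90.8% and 91.6% of the enzyme bars.

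Ordered by mean level, the 35 genes gave 34 pairs of neighbours, and the library ranges of 22 pairs overlapped. The other 12 pairs did not, and among these steps were those from Cpe to Npy, Npy to Sst, Chga to Penk, Chgb to Scg2, Pam to Adcyap1 and Pcsk2 to Nppc, while from Sst down to Chga each gene's range overlapped the next.

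Each gene's rounded counts in the 2 libraries were then set against each other by an exact binomial test, two-sided and adjusted by Benjamini-Hochberg over all 17428 genes with a mean of at least 10 reads. This test sets 1 library against the other relative to counting noise. It compares these libraries, not conditions. Ratios are given as replicate 2 over replicate 1 on the log2 scale, with the counting error as SE. Of the 35 genes 32 had enough reads, and Tac2, Gnrh1 and Ucn had not. With an adjusted p below 0.05 and a 2-fold ratio both required, 0 of the 32 were called, where 2.25% of all tested genes were. At an unadjusted p under 0.05 the exact binomial test passed 16 of the 32, and 34.6% of all tested genes.

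With no limit on the fold, 15 of the 32 genes passed an adjusted p of 0.05, against 24.6% of all tested genes. Of these, 14 were lower in replicate 2, where 11.8% of tested genes were, and 1, Penk, was higher, where 12.8% were. The 14 were Gal, Pdyn, Cartpt, Pcsk1n, Scg5, Tac1, Scg2, Pcsk2, Sst, Chga, Pam, Adcyap1, Npy and Cpe. They were 7 precursors, 2 granins, both regulators and 3 enzymes. Regardless of the test, 25 of the 32 genes (78.1%) were lower in replicate 2, against 50% of all tested genes. The median ratio was −0.21 over the 32 genes and 0.00 over all tested genes, and the median size of the ratio was 0.24 and 0.14.

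Gal had the largest ratio among the members with a mean of at least 100 reads. It had 2395 reads in replicate 1 and 845 in replicate 2, and its ratio was −0.90 ± 0.06 (SE), a level 1.87 times higher in replicate 1 (exact binomial test, adjusted p = 2.12e-57). Pdyn, with 1010 and 437 reads, had a ratio of −0.61 ± 0.08 (exact binomial test, adjusted p = 2.45e-12). Cartpt, with 568 and 258 reads, had a ratio of −0.54 ± 0.11 (exact binomial test, adjusted p = 7.77e-06). Pcsk1n, with 8984 and 4384 reads, had a ratio of −0.44 ± 0.03 (exact binomial test, adjusted p = 1.13e-59). Penk went the other way, with 1022 and 956 reads and a ratio of 0.50 ± 0.06 (exact binomial test, adjusted p = 8.45e-13). Cpe, with 20989 and 13201 reads, and Npy, with 4750 and 2954, passed with small ratios of −0.07 ± 0.02 and −0.09 ± 0.03.

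The spread between these libraries over all genes was wider than counting noise, with a common biological coefficient of variation of 9.24% in edgeR. That value was estimated from the same 2 libraries that the next test compares. The test can therefore only pick out genes beyond their typical spread. The edgeR exact test with that dispersion passed 1 of the 32 genes at an adjusted p under 0.05, against 1.24% of all tested genes, and 5 at an unadjusted p under 0.05, against 6.28%. The 1 gene was Gal (edgeR exact test, adjusted p = 0.000851). Pcsk1n, Penk, Cartpt and Pdyn passed only before adjustment.

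Markers of several cell types also differed between the libraries. The 13 sensory ganglion markers summed to 0.824 times as much in replicate 2 as in replicate 1, with 9 of 13 higher in replicate 1. By the 2-fold rule 1 of the 13 was called, Trpv1, a heat-sensing channel of pain neurons, at 8.64 and 4.43 TPM. That rule called 2.25% of all tested genes, both directions together, which is the share to set beside each marker list. The 8 motor neuron markers summed to 485 and 389.8 TPM, with 4 of 8 higher in replicate 1 and 4 higher in replicate 2. Most of that sum lay in Prph, at 268 and 198 TPM, and Isl1, at 127 and 101 TPM. Isl1 is also on the sensory ganglion list. The 7 sympathetic and chromaffin markers summed to 77.8 and 56.9 TPM, of which only Th was detected. The 8 dorsal horn markers summed to 216 and 234 TPM, with 6 of 8 higher in replicate 2. For the 7 markers of neurons in general the sums were 2960 and 2836 TPM, with 6 of 7 higher in replicate 1. The 6 skeletal muscle markers summed to 46.0 and 125 TPM, and 5 of them were called higher in replicate 2, such as Myog at 3.90 and 16.5 TPM. The 5 epidermal markers summed to 6.95 and 16.9 TPM, and 4 of them were called higher in replicate 2. Nkx2-1 of the hypothalamic list was called higher in replicate 2 at 0.10 and 0.55 TPM. The part of these markers in the ratios of the peptide genes was not tested.

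**Figure D3:**
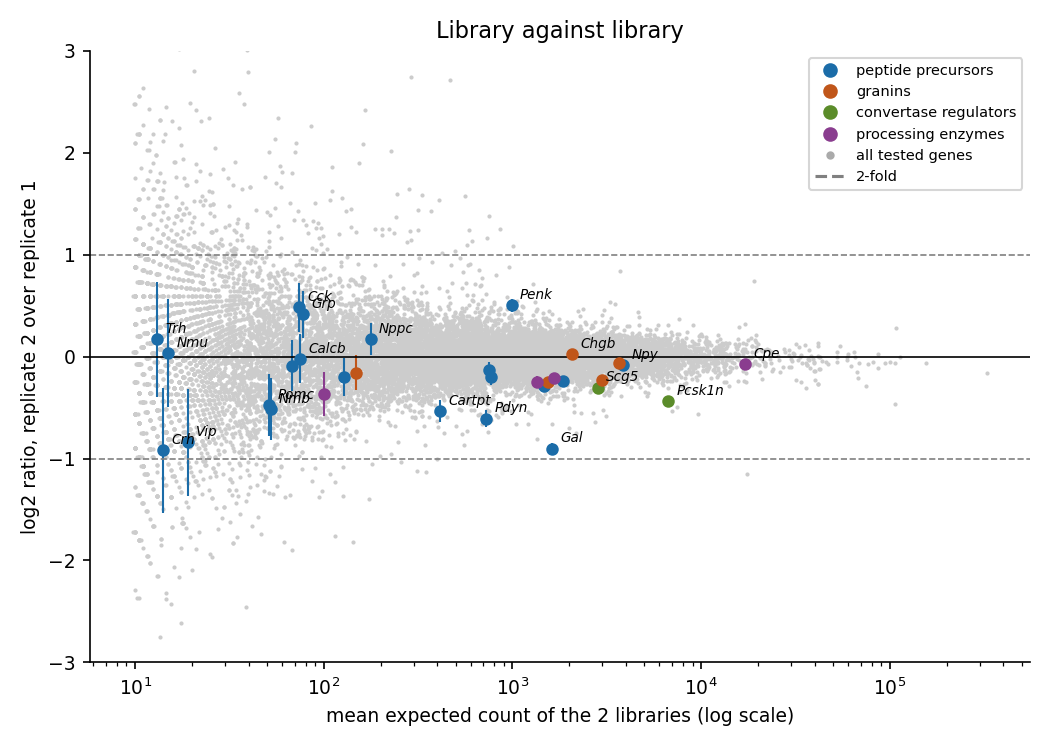
Log2 ratio of replicate 2 over replicate 1 against the mean expected count (log scale) for all 17428 tested genes (grey) and the 32 tested members (coloured by role, bars are the counting SE), with 2-fold as dashed lines and 34 genes beyond the axis not drawn. Gal lies lowest among the deep genes at −0.90, Penk lies above 0 at 0.50, and most members lie below the line at 0.

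The Calca gene gives different products by alternative splicing. A transcript that ends with the calcitonin exon (exon 4, chromosome 7, 114633293 to 114633785, GRCm38) encodes calcitonin, the hormone of thyroid C cells, and one that skips it for the next exon (exon 5, 114632416 to 114632599) encodes CGRP, the product of neurons. Both lie on the minus strand. The joins are shown because they decide which peptide is made. The last 30 bases of the shared exon are in lower case and the first 30 bases of the alternative exon are in capitals.
calcitonin join: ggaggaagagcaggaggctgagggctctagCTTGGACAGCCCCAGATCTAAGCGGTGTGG
CGRP join: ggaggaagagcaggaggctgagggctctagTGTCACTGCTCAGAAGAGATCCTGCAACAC
In frame, each alternative exon brings its own pair of lysine and arginine codons just before the cysteine or serine codon that opens its peptide. The deposited isoform percent gave the CGRP transcript 93.5% of the Calca level in replicate 1 and 96.7% in replicate 2, or 95.1% ± 2.27 (SD, n = 2). The calcitonin transcript had 6.55% and 3.34%, on 9.25 and 2.70 estimated reads with posterior SDs of 1.73 and 1.11 reads. In replicate 2 it lay under the limit of 3 reads. Calcitonin RNA was thus near the limit of what this depth could show.

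Tac1 is spliced into forms that differ in exons 4 and 6 on chromosome 6 (GRCm38, plus strand). Exon 6 (7559099 to 7559152) encodes neurokinin A, while substance P is encoded before exon 4 (7557216 to 7557260) and stays in every form. The beta form has both exons, the gamma form lacks exon 4 and the alpha form lacks exon 6. The 2 cassettes are shown because their use sets the peptides that can be made. Exon 6 also carries the glycine and basic codons that end neurokinin A.
Tac1 exon 4: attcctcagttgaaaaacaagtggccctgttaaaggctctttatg
Tac1 exon 6: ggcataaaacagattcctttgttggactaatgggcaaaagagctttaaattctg
The gamma form had 43.6% and 47.3% of the Tac1 level, the alpha form 28.5% and 33.4%, and the beta form 27.7% and 19.2%. Transcripts with exon 6 together held 71.3% and 66.5%, or 68.9% ± 3.35 (SD, n = 2). By this length-scaled share the gamma form was highest in both libraries. By estimated reads it was highest in neither, with 597.5 in replicate 1 and 365.1 in replicate 2. The beta form had 724.6 reads in replicate 1. The alpha form had 383.3 in replicate 2, with a posterior SD of 36.2. The order of alpha and beta was not clear in replicate 1, where their counts were 580.8 and 724.6 reads with posterior SDs of 54.7 and 60.8.

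**Figure D4:**
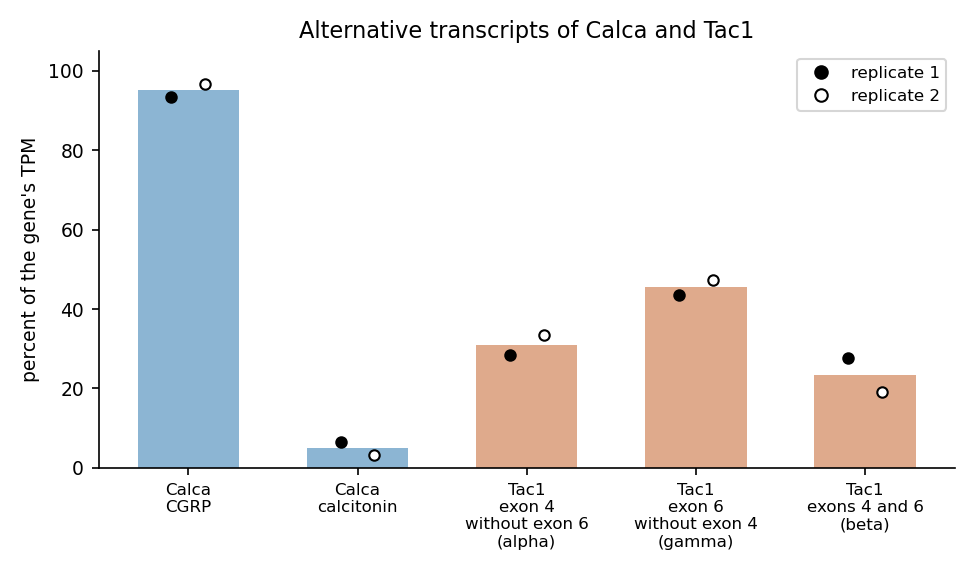
Percent of the gene's TPM assigned to each form of Calca and Tac1, with the mean of both libraries as bars from 0 and replicates 1 and 2 as filled and open circles. The CGRP form holds 93.5% and 96.7% of Calca, and no form of Tac1 holds over 47.3%.

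Other genes with a second transcript of at least 10% in both libraries were Scg2, Penk and Grp. The 2 Scg2 transcripts held 59.4% and 40.6% in replicate 1 and 59.5% and 40.5% in replicate 2, a division that hardly moved. The main Penk transcript held 74.7% and 77.0%, so the higher Penk level in replicate 2 was shared by both transcripts, at 29.0 and 43.4 TPM for the main one and 9.83 and 13.0 TPM for the other. The main Grp transcript held 89.8% and 78.9%, with posterior SDs of 10.7 and 14.5 reads on 73.7 and 56.2. The main Pam transcript held 73.8% and 69.6%. The long Pam transcripts of 4102 and 4095 bases had 17.0% and 0% in replicate 1 and 9.95% and 7.95% in replicate 2, with posterior SDs of 64.3 to 85.9 reads, so the estimates did not separate them.

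The precursor sequences carry the marks that the enzymes read. The last stretch of the peptide in the 3 highest precursors with an amidation site is printed with 30 coding bases before it, from GENCODE M21 transcripts. The capitals mark the glycine codon that Pam converts and the 2 basic codons at which Pcsk1 and Pcsk2 cut and which Cpe removes.
Npy: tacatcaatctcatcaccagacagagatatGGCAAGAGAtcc
Gal: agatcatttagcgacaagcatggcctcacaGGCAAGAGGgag
Tac1: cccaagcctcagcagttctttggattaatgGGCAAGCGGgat
The capitals are codons 65 to 67 of Npy, 62 to 64 of Gal and 69 to 71 of Tac1, counted from the start codon. Such a run of 1 glycine codon (any GGN) and 2 codons for lysine or arginine, read in frame on the coding strand only, was found in 16 of the 24 precursors, in 1 of 5 granins (Vgf), in 1 of 2 regulators (Scg5) and in 2 of 4 enzymes (Pcsk1 and Pcsk2). Per 1000 codons it occurred 6.41 times in the precursors and 0.964 times in the coding sequences of all 21561 genes read, of which 34.7% held at least 1. Pairs of basic codons occurred 32.0 times per 1000 codons in the precursors, 22.5 in the granins and 15.6 over all genes. Trh held 5 such runs, for its repeated short peptide, and Vip, Pomc, Adcyap1 and Tac1 held 2 each. Sst, Penk, Pdyn, Pnoc, Cartpt, Nppc, Crh and Ucn held none. A match is a description of the codons and not a measured cut.

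The cyclic AMP response element TGACGTCA reads the same on both strands and was the only promoter motif searched. It was looked for in the 250 bases before the start of each gene in the RefSeq promoter table (GRCm38.p6). The table held 27 of the 35 genes. It had no entry for Cpe, Penk, Pnoc, Grp, Calcb, Vgf, Crh and Gnrh1. The element was found in 6 of the 27 genes: 3 precursors, 2 granins and 1 enzyme. Over the table, 478 of 27025 genes (1.77%) and 508 of 32851 promoters (1.55%) held it. The windows of 30 bases are shown because they let the element and its surroundings be compared between the 6 genes, with the element in capitals.
Sst, chr16:23890874-23890903, minus strand: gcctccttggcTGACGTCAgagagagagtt
Ucn, chr5:31138921-31138950, minus strand: atgttcttcgcTGACGTCAgtcggagctgt
Scg2, chr1:79440076-79440105, minus strand: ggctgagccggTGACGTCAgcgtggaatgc
Chgb, chr2:132781559-132781588, plus strand: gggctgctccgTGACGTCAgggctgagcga
Pcsk1, chr13:75089768-75089797, plus strand: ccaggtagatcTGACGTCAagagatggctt
Cartpt, chr13:99900777-99900806, minus strand: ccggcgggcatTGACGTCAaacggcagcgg
The element began 44 to 112 bases before the start given in that promoter table, nearest in Ucn and farthest in Cartpt. By the GENCODE gene bounds, the windows of Sst, Scg2, Chgb and Cartpt lay inside the gene, after its outermost start. Those of Ucn and Pcsk1 lay before it. The levels of these 6 genes ran from 198 TPM for Sst and 42.5 TPM for Chgb to 2.12 TPM for Pcsk1 and 1 read in all for Ucn. Presence of these letters thus went with high and with undetected RNA. No binding was measured here.

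Of 45 receptors listed for the peptides, 44 matched a gene and 19 were detected. Their median level was 0.833 TPM, and only 5 reached 10 TPM in both libraries. Oprl1, the nociceptin receptor, was highest at 48.1 and 48.7 TPM, above its peptide gene Pnoc in both libraries. Adcyap1r1, the PACAP receptor, was at 32.9 and 30.8 TPM, also above Adcyap1. Npr2, the guanylyl cyclase receptor of C-type natriuretic peptide, was at 20.3 and 21.3 TPM, above Nppc. Calcrl, which binds CGRP together with Ramp1, was at 12.6 and 15.8 TPM, and Ramp1 at 2.38 and 2.08 TPM. Sstr2, a somatostatin receptor, was at 12.3 and 16.3 TPM.

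The highest receptors of Npy, Gal and Tac1 lay below 10 TPM. The highest receptor for Npy was Npy1r at 7.57 and 8.78 TPM, for Gal it was Galr1 at 3.40 and 3.62 TPM, and for Tac1 it was Tacr1 at 2.66 and 2.29 TPM. Of 17 detected precursors with receptors listed, 11 had a detected receptor. The other 6 were Penk, Pdyn, Grp, Nmb, Nmu and Nts. The opioid receptors Oprm1, Oprd1 and Oprk1 ran from 0.58 to 1.14 TPM, against 48.1 TPM or more for the related Oprl1. Over 23 precursors, the highest receptor lay below its precursor in both libraries for 12 and above it for 8. Those 8 were Pnoc, Adcyap1, Calca, Calcb, Nppc, Pomc, Crh and Ucn. For Calca and Calcb the receptor counted was Calcrl alone. Its partner Ramp1, at 2.38 and 2.08 TPM, lay below both genes in both libraries. Grpr, the receptor of gastrin-releasing peptide, was at 0.27 and 0.09 TPM, and Gnrhr, the receptor of gonadotropin-releasing hormone, had 0 reads in both libraries. Between the libraries 1 of 35 tested receptors was called at 2-fold, close to the 2.25% of all tested genes. It was Trhr, the receptor of thyrotropin-releasing hormone, with 40 and 62 reads and a ratio of 1.23 ± 0.29 (exact binomial test, adjusted p = 0.000299).

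**Figure D5:**
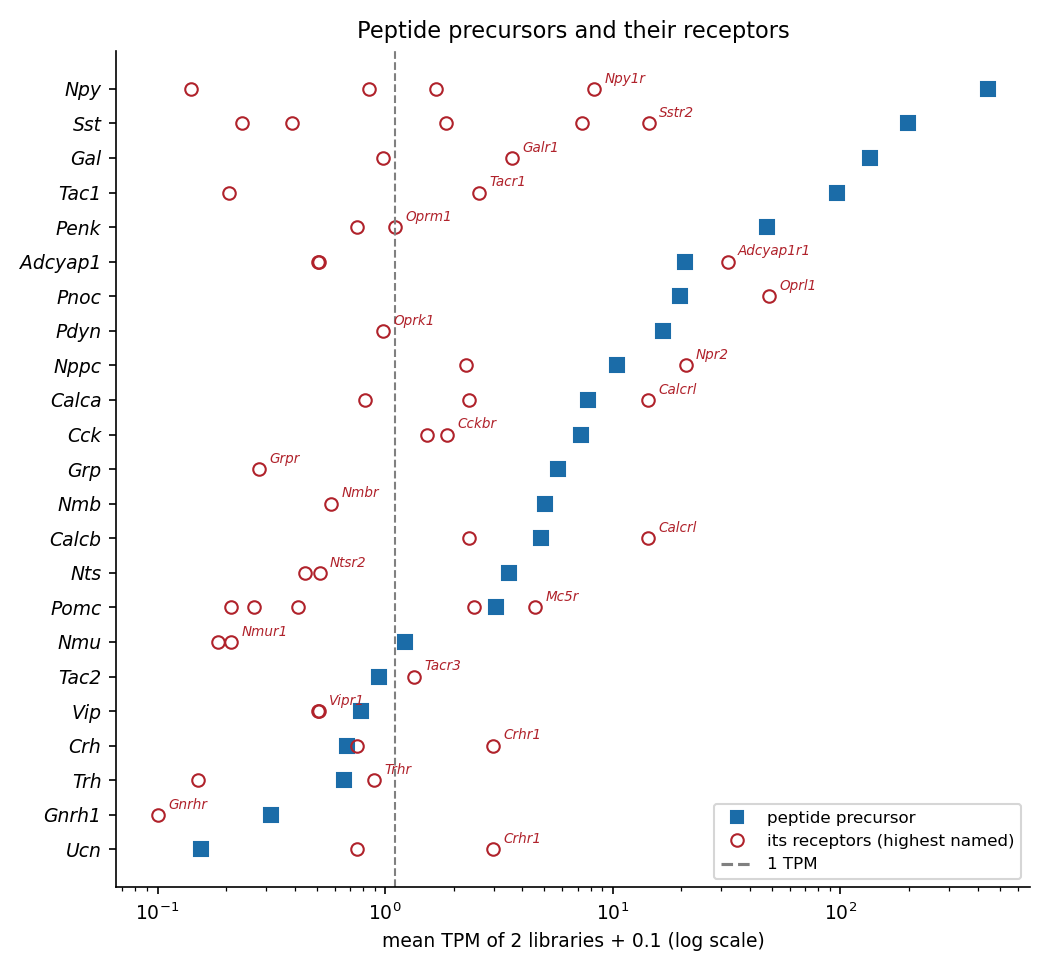
Mean TPM + 0.1 of both libraries (log scale) of each peptide precursor (blue squares, highest at the top) and of its matched receptors (red circles, the highest named), with 1 TPM as a dashed line. For the 5 highest precursors no receptor lies above 14.3 TPM, while Oprl1 and Adcyap1r1 lie right of Pnoc and Adcyap1.

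The wider pathway was measured with 3 further lists. Of 20 genes of granule biogenesis and release, 18 were detected at a median level of 14.6 TPM. The highest were the vesicle GTPases Rab3a at 313 and 306 TPM and Rab2a at 256 and 258 TPM, the SNARE gene Snap25 at 144 and 143 TPM and the synaptotagmin Syt4 at 121 and 126 TPM. The lowest was Slc18a1, the monoamine transporter of chromaffin cells, at 0.34 and 0.31 TPM. Cadps, which primes dense-core granules for release, was at 16.8 and 15.1 TPM, and the granule membrane protein gene Ptprn at 14.4 and 12.1 TPM.

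Of 13 other convertases and carboxypeptidases, 10 were detected. The highest were Mbtps1, the site-1 protease of the Golgi, at 41.6 and 44.3 TPM, the glutaminyl cyclase Qpctl at 17.3 and 16.8 TPM, Pcsk7 at 14.8 and 14.5 TPM and the glutaminyl cyclase Qpct at 8.31 and 8.11 TPM. The lowest was Cpn1, a carboxypeptidase of plasma, at 0.15 and 0.32 TPM. Pcsk7, which works in the constitutive pathway, exceeded Pcsk1 by 7.0 ± 0.93 times (SD, n = 2). All 11 peptidases that break down released peptides were detected, led by Prep at 77.0 and 85.4 TPM, Thop1 at 35.5 and 36.7 TPM, Ide at 26.8 and 27.0 TPM and Nln at 23.0 and 25.6 TPM, and lowest for Enpep at 1.57 and 1.13 TPM. Of the 43 tested genes in these 3 lists, 0 were called between the libraries at 2-fold by the exact binomial test. Of these, 17 passed that test at an unadjusted p under 0.05, where 34.6% of all tested genes did. By the edgeR exact test 0 passed at an adjusted p under 0.05, where 1.24% of all tested genes did.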

How the data were processed

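Total RNA-seq of 2 libraries of 1 group was used as the authors deposited it, per the labels and the file headers. The deposited notes name mm10 and GENCODE release 4. An aligner, a quantifier and strand handling are not given in the sources here. The expected counts deposited by the authors estimate reads per gene or transcript and were rounded for tests. The authors' TPM are scaled to a fixed sum that includes spike-ins, which with other features that are not mouse genes held 13.0% and 12.6%. The authors' deposited FPKM served as an alternative. The deposited isoform percent is the transcript's share of its gene's TPM. Posterior SDs of counts and effective lengths were also deposited by the authors.

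Symbols, exons and coding sequences came from GENCODE release 21 (GRCm38) by identifier without version, which named 42462 of 43346 genes. Transcript forms were classed on its exons, and coding sequences are the APPRIS principal transcripts. Counts were compared with a two-sided exact binomial test (SciPy 1.17.1) against TMM library sizes (edgeR 4.0.16, R 4.3.3), with 0.5 added to counts in ratios. DESeq2 1.42.0 size factors and the edgeR exact test were alternatives. The test was checked on counts simulated with counting noise alone, so the check does not cover the wider spread between these libraries. A count of 0 was taken to allow 3 reads; floors cover counting error only. The replicates are labelled biological; the sources used here do not say how embryos were divided. All 35 members were named, and of every other list the 4 highest, the lowest, those called between libraries and receptors beside their peptide; Cadps, Ptprn, Trpv1, Myog, Nkx2-1, Avp, Oxt, Hcrt, Pmch and the precursors with 0 reads were named after their values were seen. Members, lists and tests were chosen with earlier results of these data known.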

Additional observations from a re-analysis of the deposited data

How the results depend on the processing

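The count of detected genes ran from 21 at 5 TPM to 30 at 0.5 TPM, with 28 by FPKM, 29 after rescaling TPM to mouse genes and 29 to 30 from a single replicate, all within 1.5 times of 29. Detected receptors fell from 19 to 7 at 5 TPM, with 26 at 0.5 TPM, 16 by FPKM and 19 to 22 from a single replicate. The ratio of granins, regulators and enzymes to precursors was 6.78 on medians, against 1.02 on sums. It was 1.00 without Npy and Cpe, 1.02 by FPKM and 1.00 to 1.03 from a single replicate. No gene was called between libraries with DESeq2 size factors, total counts, a minimum mean of 50 reads, posterior mean counts or the edgeR exact test with the 2-fold limit. Without a filter on low counts 1 gene was called, Tac2, with 514 of 24627 genes in all; at 1.5-fold 2 were, Gal and Pdyn, with 709 of 17428. With no limit on the fold, an alternative chosen after seeing the data, 15 were. A minimum of 50 reads left 117 of 14157 genes called, and the edgeR exact test 180 of 17428, against 392. The CGRP share of Calca was 93.5% to 96.7% from a single replicate, 95.7% by counts and 93.9% from posterior means. The median level was 13.4 to 17.0 TPM from a single replicate and 18.2 TPM after rescaling, which multiplied every level by 1.15 or 1.14 and changed the rank of 0 genes. No paired analysis was possible because there is 1 group.

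With 2 libraries from tissue with an unstated number of pooled embryos, SDs rest on 1 difference. Depth limits the genes under 100 reads a library, among them Tac2, Vip, Crh, Trh, Nmu, Gnrh1, Ucn and the calcitonin transcript.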

Other observations

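Of 41 peptide precursors outside the 35 genes, 40 matched a gene and 11 were detected, with a median of 0.205 TPM. Uts2b, the precursor of urotensin II-related peptide, a peptide of spinal motor neurons, was the highest at 25.2 and 23.5 TPM in replicates 1 and 2, between Pam and Adcyap1 in level. Nucb2, the precursor of nesfatin, was at 15.2 and 17.1 TPM, Npff, the precursor of neuropeptide FF, at 8.11 and 4.32 TPM, and Edn3, endothelin 3, at 5.73 and 4.48 TPM. The hypothalamic precursors Avp, Oxt, Hcrt and Pmch had at most 0.57 TPM. The 9 genes with 0 reads in both libraries were Npvf, Galp, Ucn2, Adm2, Iapp, Pyy, Ppy, Gip and Prlh.

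In this list 1 of 13 tested genes was called between the libraries at 2-fold, where 2.25% of all tested genes were. It was Nppa, the precursor of atrial natriuretic peptide. It had 79 reads in replicate 1 and 3.05 in replicate 2, or 4.56 and 0.28 TPM (exact binomial test, adjusted p = 1.79e-12). Its assignment was uncertain, with a posterior SD above 10% of the count in at least 1 library.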
